A study of Homo sapiens with 9 samples.

Results

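The insulin-like growth factor (IGF) system was examined in human cranial neural crest cells (CNCCs) from which the transcription factor SOX9 had been removed. Its 10 members were taken by name: 2 ligands (IGF1 and IGF2), 2 receptors (IGF1R and IGF2R) and 6 binding proteins (IGFBP2 to IGFBP7). All 10 were among the 18970 gene symbols listed, and 8 of them had enough reads to be tested (IGF1 and IGFBP7 did not). The cells descend from the established human embryonic line H9 and were used at passage 4. In all 9 samples both copies of SOX9 carried a C-terminal FKBP12-F36V degron with mNeonGreen and V5 tags, so the 0h controls were tagged cells as well. dTAGV-1 directs the degron to the ubiquitin ligase machinery. The dose was 500 nM, and the 3 groups are named 0h, 3h and 24h after the time of exposure. The protocol names DMSO as the vehicle control, whereas the labels of the 0h samples state the 500 nM dose with a time of 0h. Relative SOX9 was labelled 100% at 0h and 0% at 3h and 24h. The 3 samples of each group came from the same 3 cultures: S9CC13_R6, S9CC47_R5 and S9CC47_R6, named after 2 clones (S9CC13 and S9CC47) and 2 differentiation batches (R5 and R6). Batch R5 held only 1 culture, so its effect and that of the culture cannot be told apart. Untagged cells were not analysed here.

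Newly made RNA was followed by SLAM-seq. Cells were given 100 uM 4-thiouridine for 2 h, and labelling began 1 h (3h group) or 22 h (24h group) after the drug. Alkylated thiouridines are read as T>C conversions. Reads with a conversion (T>C reads) are therefore taken as RNA made during labelling, and all reads together (total reads) measure the RNA pool. All 9 samples were labelled, so the background of T>C reads in unlabelled RNA was not measured. Libraries held 16955633 to 28782678 total reads and 3130673 to 5475800 T>C reads. A mean of 19.1% ± 0.852 of library reads were T>C reads in the 0h group, 17.9% ± 1.82 in the 3h group and 20.5% ± 0.752 in the 24h group (SD, n = 3). SOX9 RNA was not an index of the depletion, since dTAGV-1 acts on the protein; its normalized total reads were 16727 ± 805 at 0h and 37294 ± 2264 at 24h (SD, n = 3). Of 15 neural crest markers, all 15 were tested, and TFAP2A, TFAP2B, NR2F1, NR2F2 and TWIST1 each had at least 4548 normalized total reads in every sample. Others of this list were far lower, such as SNAI2 (169.5 to 335.2), DLX1 (40.38 to 174.6) and DLX2 (14.41 to 119.6). The pluripotency genes POU5F1, NANOG and TDGF1 stayed under 5 in every sample, although LIN28A (5101 to 8147) and L1TD1 (9069 to 11082) were high. The endothelial genes PECAM1 and CDH5, the neural genes SOX1 and PAX6 and the muscle genes MYOD1 and MYOG stayed under 6. Other genes of these lists were higher, such as ERG (175.8 to 548.2) and TIE1 (18.91 to 96.45) of the endothelial list, NES of the neural list (7095 to 11469) and ACTA2 of the muscle list (338.7 to 502.0).

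IGF1 and IGF2 are secreted ligands of IGF1R, a receptor tyrosine kinase that signals through insulin receptor substrates, PI3K and AKT. IGF2R, also known as the cation-independent mannose-6-phosphate receptor, takes up IGF2 for degradation in lysosomes. The binding proteins hold the ligands outside the cell, prolong their lifetime or keep them from the receptor, and proteases release the ligand again. In developing skeleton and face, IGF signalling is known to promote growth of mesenchyme and of cartilage. The medium of the early neural crest differentiation contained bovine insulin. Depletion was done in a later medium, whose recipe does not list bovine insulin as a separate addition. That medium held NeuroPlex supplements, whose contents the methods do not give, so insulin cannot be taken as absent.

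IGFBP2 (chr2:216632828-216664436, plus strand, hg38) and IGFBP5 (chr2:216672105-216695549, minus strand) lie tail to tail with 7668 bases between them. IGFBP4 lies elsewhere, at chr17:40443450-40457725 on the plus strand. These 3 binding proteins carried most of the changes below, so the bases directly upstream of their start sites are shown as a pair of neighbours and a distant relative. The sequences are from RefSeq (GRCh38.p14), 150 bases each, 5′ to 3′ on the strand of the gene: chr2:216632678-216632827 (plus) for IGFBP2, chr2:216695550-216695699 (minus) for IGFBP5 and chr17:40443300-40443449 (plus) for IGFBP4. Capitals mark TATAAA and its variant TATTTAA, which resemble TATA boxes, and GCCNNNGGC, the core bound by the AP-2 factors that TFAP2A and TFAP2B encode.
IGFBP2: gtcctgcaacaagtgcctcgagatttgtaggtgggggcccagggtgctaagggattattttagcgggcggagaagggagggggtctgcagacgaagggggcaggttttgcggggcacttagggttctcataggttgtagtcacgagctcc
IGFBP5: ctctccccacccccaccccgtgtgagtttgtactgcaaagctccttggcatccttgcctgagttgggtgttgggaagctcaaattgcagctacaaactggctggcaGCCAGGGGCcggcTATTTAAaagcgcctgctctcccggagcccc
IGFBP4: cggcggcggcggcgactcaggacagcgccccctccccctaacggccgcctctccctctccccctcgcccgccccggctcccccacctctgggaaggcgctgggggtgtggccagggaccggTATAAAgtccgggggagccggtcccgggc

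The neighbours did not share these elements. In the IGFBP5 window TATTTAA began 31 bases and GCCNNNGGC 44 bases before the start site, with no overlap between them, and in the IGFBP4 window TATAAA began 29 bases before it. The 3 IGFBP2 windows in the table held none of the motifs searched. Windows of 250 bases before and 50 after the start were searched on both strands for these 3 motifs and for the core letters bound by SOX proteins, ACAATG and ACAAAG. A window was given for 8 of the 10 members (not for IGF2 or IGFBP7). The SOX letters occurred in the windows of IGF1 and IGFBP6 and not in those of IGF1R, IGF2R, IGFBP2, IGFBP3, IGFBP4 or IGFBP5. Among all 35116 promoter windows, 10.8% held ACAATG, 16.1% ACAAAG, 11.5% TATAAA, 4.52% TATTTAA and 23.2% GCCNNNGGC. A match describes letters only and says nothing of binding.

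CNCCs expressed the receptors and a few binding proteins at widely different levels. Levels are given as CPM, reads scaled to equal library totals; they are not divided by transcript length because each read comes from a 3′ end. IGFBP2 was the most abundant member at 0h, with 783 ± 114 CPM of total reads (SD, n = 3), and 98.6% of tested genes had a lower mean. IGFBP4 followed at 124 ± 4.91, IGF2R at 63.2 ± 7.57 and IGF1R at 41.2 ± 4.14. IGF2 reached 11.9 ± 1.67, IGFBP5 6.76 ± 1.77, IGFBP6 4.18 ± 0.322 and IGFBP3 1.5 ± 0.59. No 2 neighbours in this order overlapped at 0h. At 3h the ranges of IGF2R and IGF1R overlapped, as did those of IGF2 and IGFBP5. At 24h IGFBP5 stood at 18.8 ± 11.6 and IGF2 at 17.2 ± 1.49, in overlapping ranges and in the reverse of their 0h order. Of the summed total reads of the 6 binding proteins, IGFBP2 supplied between 80.2% and 86.3% in every sample, IGFBP4 between 12.4% and 18.1% and IGFBP5 between 0.651% and 2.68%.

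IGF1 and IGFBP7 were at the limit of detection. IGF1 had 1 to 7 total reads per sample and IGFBP7 had 2 to 10 in 8 of the 9 samples. The remaining library, S9CC47_R6 at 24h, held 31 total reads of IGFBP7, of which 16 were T>C reads. The last exon of IGFBP7 overlaps POLR2B on the opposite strand, and whether reads were counted by strand is not given in the sources used here. Among ligands, only IGF2 RNA therefore stood clearly above the limit in these cells.

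**Figure D1:**
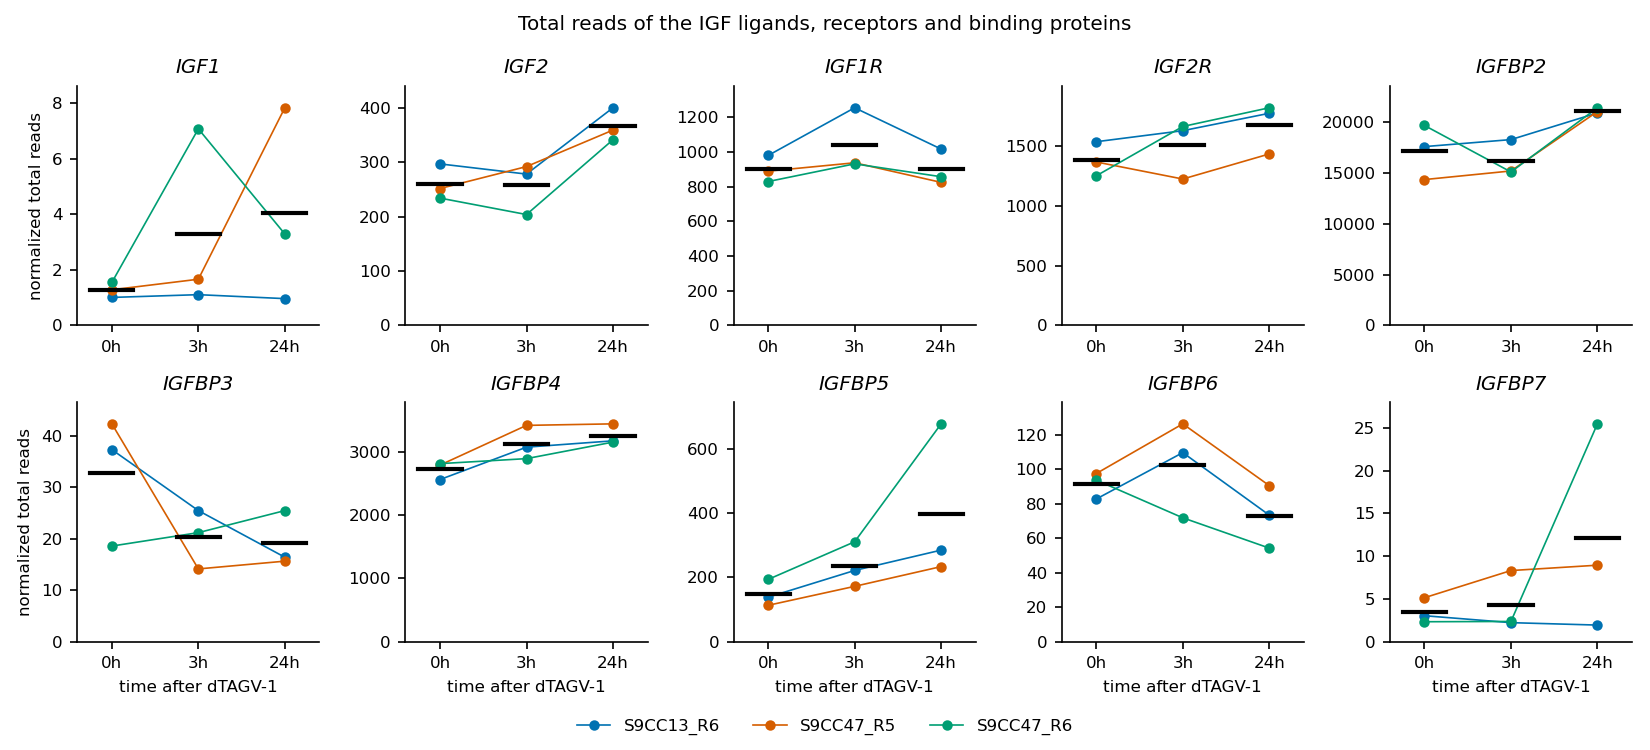
Normalized total reads of the 10 members by time after dTAGV-1, with a vertical axis starting at 0 in each panel. Points and lines are the 3 cultures and black bars are group means; IGF2, IGFBP2, IGFBP4 and IGFBP5 are higher in every 24h sample than in every 0h sample.

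At 3h of SOX9 depletion 2 of the 8 tested members were called for T>C reads (adjusted p under 0.1), IGFBP4 and IGFBP5, both higher. Over all 12037 genes tested 1.79% were called, 1.01% as higher. The same 2 members were those whose 3h samples all lay above their 0h samples, as 5.72% of tested genes did. The median log2 fold change of the 8 members was 0.15, against -0.01 over all tested genes. In bulk samples, fewer cells of a type and less RNA per cell cannot be told apart.

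IGFBP4 is a soluble binding protein that is cleaved by pappalysin. Cultures are listed throughout as S9CC13_R6, S9CC47_R5 and S9CC47_R6. Normalized T>C reads of IGFBP4 were 345.9, 468.0 and 406.7 in the 0h group, and in the 3h group they were 517.3, 677.4 and 506.4. Every 3h sample thus exceeded every 0h sample. The rise was 0.46 ± 0.13 on the log2 scale (SE; adjusted p = 0.0363). At 24h the T>C reads were 458.9, 491.2 and 364.5, overlapping with 0h, and the log2 fold change was 0.13 ± 0.14 (adjusted p = 0.793). T>C reads of IGFBP4 were lower at 24h than at 3h in all 3 cultures, but that contrast was not called (-0.33 ± 0.15, adjusted p = 0.476).

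The total reads of IGFBP4 were called at 24h and not at 3h. They were 2558, 2786 and 2809 at 0h, 3069, 3413 and 2888 after 3h and 3169, 3437 and 3149 after 24h. All 3h and 24h samples lay above all 0h samples. The 3h change of 0.19 ± 0.08 was not called (adjusted p = 0.359), while the 24h rise of 0.27 ± 0.08 was (adjusted p = 0.0141). The rise in T>C reads at 3h was not called without S9CC13_R6, S9CC47_R5 or S9CC47_R6 (adjusted p from 0.737 to 1.00), nor when T>C reads were scaled by the size factors of total reads (adjusted p = 0.158), and its log2 value stayed between 0.37 and 0.57 under these settings. The 24h rise in total reads was not called without any 1 culture either (0.26 to 0.37, adjusted p from 0.305 to 0.648). Calls over all genes also fell without S9CC13_R6, S9CC47_R5 and S9CC47_R6. They went from 216 to 59, 91 and 61 for T>C reads at 3h and from 1751 to 154, 719 and 327 for total reads at 24h.

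IGFBP5, a binding protein that attaches to extracellular matrix and is prominent in skeletal tissue, was the member called for T>C reads at both times. Its normalized T>C reads were 26.05, 12.09 and 32.75 at 0h, 60.86, 40.71 and 50.18 after 3h and 65.42, 47.77 and 129.7 after 24h. The lowest depleted sample was above the highest 0h sample. The rise was 1.19 ± 0.38 at 3h (adjusted p = 0.0980) and 1.69 ± 0.39 at 24h (adjusted p = 0.00110). The difference between 24h and 3h was not called (0.50 ± 0.40, adjusted p = 0.858). In raw reads the 0h libraries held 10 to 43 T>C reads of IGFBP5, so the 3h call rested on small counts.

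The pool of IGFBP5 RNA rose as well. Total reads were 138.3, 113.0 and 193.7 at 0h, 221.6, 172.1 and 311.0 after 3h and 285.0, 233.6 and 678.4 after 24h. The 3h group overlapped the 0h group, because S9CC47_R6 at 0h was above S9CC47_R5 at 3h, yet each culture rose against its own 0h sample. The cultures gave ratios of 1.60, 1.52 and 1.61 at 3h and of 2.06, 2.07 and 3.50 at 24h. The fitted rises were 0.77 ± 0.20 at 3h (adjusted p = 0.0121) and 1.07 ± 0.21 at 24h (adjusted p = 1.76e-05). A fit with the culture as a block replaced both the batch and the surrogate variable. Its 3h rises were 1.18 in T>C reads (adjusted p = 0.120) and 0.67 in total reads (adjusted p = 0.105) and were not called. Neither was the 3h T>C rise called when only the surrogate variable was left out (1.15, adjusted p = 0.169). With the block, total reads at 24h against 3h were called (0.67, adjusted p = 0.0177, against 0.30 ± 0.22 and 0.580 in the reported fit).

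S9CC47_R6 at 24h stood apart for IGFBP5 and IGFBP7. It was the highest sample for IGFBP5 in T>C and in total reads, and the same culture was highest in total reads at 0h and 3h. Without this library the 24h rise of IGFBP5 was 1.43 in T>C reads (adjusted p = 0.0578) and 0.82 in total reads (adjusted p = 0.00885), and the 3h rise in T>C reads was no longer called (1.07, adjusted p = 0.388). Summed over 8 muscle markers, of which 4 were tested and MYOG was at 0 in all samples, normalized total reads were 1452, 1430 and 1728 in S9CC47_R6 at 0h, 3h and 24h and 775.8 to 1125 in the other 6 samples. TAGLN, a contractile gene, held 660.1, 730.3 and 1052 of these reads in S9CC47_R6 at 0h, 3h and 24h. The rest of that sum did not rise over these times. In the other 2 cultures TAGLN fell from 433.1 and 376.2 at 0h to 279.2 and 225.8 at 24h. Its fitted 24h change in total reads was -0.75 ± 0.18 (adjusted p = 0.000991), with batch and the surrogate variable in the fit. The group means of TAGLN were 489.8 at 0h and 518.9 at 24h, so the fitted fall is not seen in the means. MYOD1, DES and MYH11 of the muscle list reached at most 2.356, 1.108 and 4.648. Of the muscle list 2 genes, TAGLN among them, were called as lower in total reads at 24h and 0 as higher. Of all tested genes 15.0% were called there. Any relation of TAGLN or the other muscle markers to the IGFBP5 values was not tested. Without any 1 culture the 24h rise of IGFBP5 in T>C reads lay between 1.46 and 2.29 and was not called (adjusted p from 0.139 to 1.00). In total reads it lay between 0.92 and 1.11 and was called only without S9CC47_R5 (adjusted p = 0.0673). The 3h rise in total reads was not called without any 1 culture (0.60 to 0.69, adjusted p from 0.352 to 1.00). Calls over all genes fell in these fits too, listed without S9CC13_R6, S9CC47_R5 and S9CC47_R6. At 24h they went from 599 to 54, 251 and 59 in T>C reads and from 1751 to 154, 719 and 327 in total reads. At 3h they went from 221 to 64, 152 and 200 in total reads. Without the library S9CC47_R6 at 24h, 359 and 927 genes remained called at 24h in T>C and total reads.

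**Figure D2:**
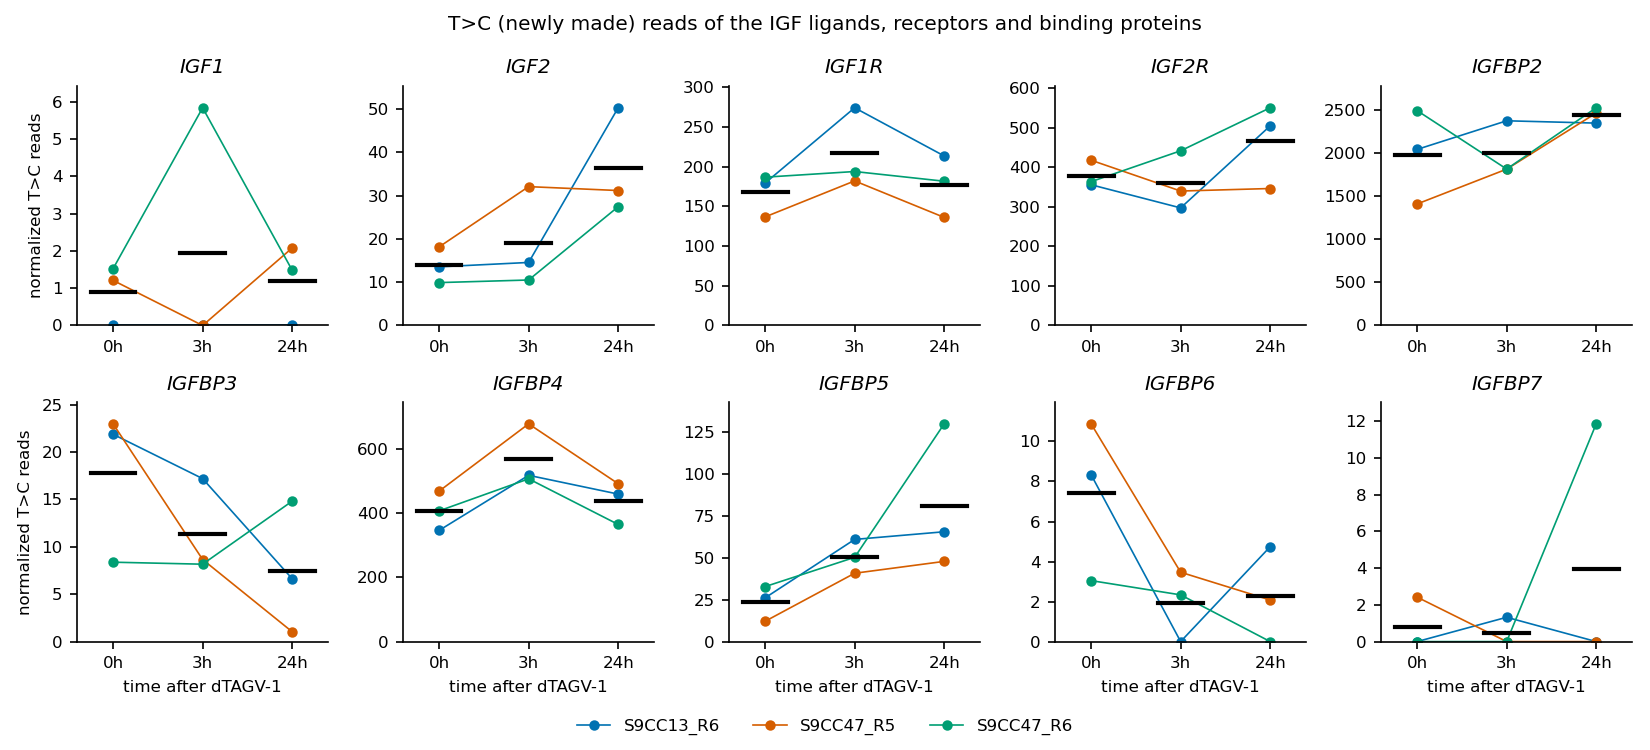
Normalized T>C reads of the 10 members by time after dTAGV-1, with a vertical axis starting at 0 in each panel. Points and lines are the 3 cultures and black bars are group means; IGFBP4 is above its 0h range at 3h only, IGFBP5 at 3h and 24h, and IGF2 at 24h only.

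At 24h of depletion 2 of the 8 tested members were called for T>C reads, IGFBP5 and IGF2, both higher. The share over all tested genes was 4.98%, with 2.38% called as higher. These 2 members were also the ones with all 24h samples above all 0h samples, against 11.0% of tested genes. For total reads, IGF2, IGFBP2, IGFBP4 and IGFBP5 were called at 24h, all higher. The background for total reads at 24h was 15.0% called and 7.11% called as higher among 11710 genes. The same 4 had no overlap between 24h and 0h, as had 13.6% of tested genes in the higher direction. At 3h only IGFBP5 was called for total reads, against 1.89% of genes called and 1.11% called as higher, while IGFBP4 was the member with no overlap (4.29% of genes in the higher direction). No member was called as lower in any comparison. The median log2 fold change of the members' total reads at 24h was 0.26, against 0.00 over all tested genes.

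IGF2, the ligand, was higher in new RNA at 24h than at 0h. Its normalized T>C reads were 13.54, 18.14 and 9.902 at 0h, 14.55, 32.05 and 10.50 after 3h and 50.25, 31.15 and 27.41 after 24h. The 3h samples overlapped both other groups. The log2 fold change was 0.35 ± 0.55 at 3h (adjusted p = 0.998) and 1.59 ± 0.54 at 24h (adjusted p = 0.0771). The raw counts were small, with 13, 15 and 13 T>C reads at 0h and 53, 30 and 37 at 24h. The 24h call was lost without the library S9CC47_R6 at 24h (1.60, adjusted p = 0.243) and without S9CC13_R6 (1.15, adjusted p = 1.00), S9CC47_R5 (2.09, adjusted p = 0.296) or S9CC47_R6 (2.10, adjusted p = 1.00). Calls over all genes fell in these fits as well, from 599 to 359, 54, 251 and 59 in that order.

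Total reads of IGF2 were more numerous. They were 296.8, 251.6 and 234.0 at 0h, 278.1, 291.9 and 203.8 after 3h and 399.9, 358.9 and 341.2 after 24h. The 3h samples overlapped the 0h samples, and all 24h samples were above both groups. IGF2 rose by 0.60 ± 0.16 at 24h against 0h (adjusted p = 0.00483) and by 0.67 ± 0.18 at 24h against 3h (adjusted p = 0.00705). Within cultures the 24h to 0h ratios were 1.35, 1.43 and 1.46. Without S9CC47_R5 the 24h rise against 0h was called (0.73, adjusted p = 0.0726). Without S9CC13_R6 (0.64, adjusted p = 1.00) or S9CC47_R6 (0.51, adjusted p = 0.776) it was not. Over all genes the fits without S9CC13_R6, S9CC47_R5 and S9CC47_R6 called 154, 719 and 327, against 1751 as reported. The last exon of IGF2 (chr11:2129117-2133223) overlaps INS-IGF2 and 2 more annotated genes on the same strand, so the assignment of reads among them is uncertain.

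IGFBP2, a binding protein abundant in embryonic tissue, rose between 3h and 24h. Its normalized total reads were 17539, 14307 and 19613 at 0h, 18226, 15152 and 15054 after 3h and 20843, 20976 and 21347 after 24h. The 24h samples lay close together and above all others, with the highest only 1.02 times the lowest, against 1.37 at 0h. The rise was 0.36 ± 0.09 against 0h (adjusted p = 0.00103) and 0.48 ± 0.09 against 3h (adjusted p = 5.04e-05). T>C reads of IGFBP2 were 2043, 1410 and 2493 at 0h and 2348, 2465 and 2526 at 24h. These overlapped and were not called by DESeq2 (0.42 ± 0.20, adjusted p = 0.289), although edgeR called them (adjusted p = 0.00718), as did DESeq2 without S9CC13_R6 (0.81, adjusted p = 0.000374). The 24h rise in total reads was called without S9CC13_R6 (0.65, adjusted p = 6.92e-05), but not without S9CC47_R5 (0.27, adjusted p = 0.252) or S9CC47_R6 (0.27, adjusted p = 0.519). These fits called 154, 719 and 327 genes in all, against 1751 as reported.

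In the contrast of 24h with 3h, IGF2 and IGFBP2 were the members called for total reads. Of all tested genes 5.39% were called there, 2.51% as higher. IGF2 was called without S9CC47_R5 (adjusted p = 0.0617) but not without S9CC13_R6 (1.00) or S9CC47_R6 (0.563). IGFBP2 was called without S9CC13_R6 (adjusted p = 7.86e-08) or S9CC47_R5 (0.0527) but not without S9CC47_R6 (0.21, adjusted p = 0.459). Over all genes 93, 165 and 889 were called without S9CC13_R6, S9CC47_R5 and S9CC47_R6, against 631 as reported. For T>C reads no member was called by DESeq2 in this contrast (1.14% of genes were); 3 had an unadjusted p under 0.05, as had 980 of all 12037 genes, and edgeR called 1, IGFBP2 (adjusted p = 0.0281), among 267 genes in all. DESeq2 called IGFBP2 there with only the 6 samples compared (0.43, adjusted p = 0.0358) or without S9CC13_R6 (0.81, adjusted p = 0.000147), but its value was -0.04 without S9CC47_R6.

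**Figure D3:**
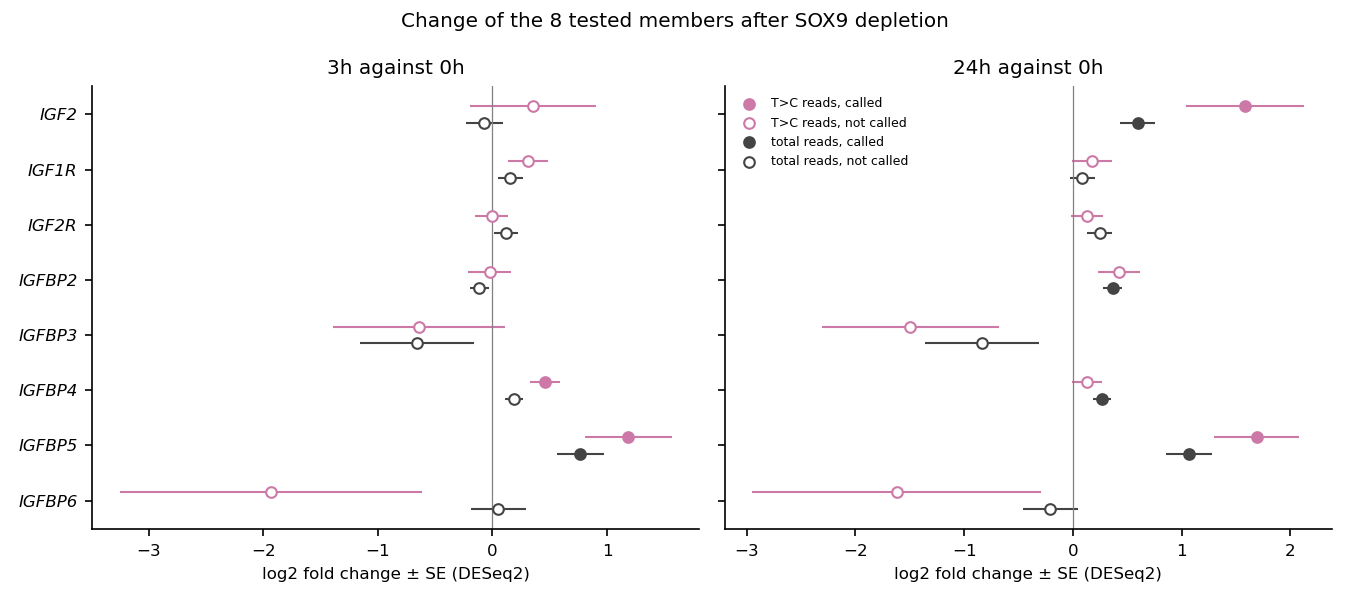
Log2 fold change of T>C reads (pink) and total reads (grey) of the 8 tested members at 3h and 24h against 0h. Bars are SE and filled points were called at an adjusted p under 0.1; IGFBP5 is filled in both measures at both times.

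Neither receptor was called at any time. The lowest and highest IGF1R T>C reads were 136.6 and 186.6 in the 0h group, 181.9 and 273.9 in the 3h group, and 136.0 and 213.3 in the 24h group, with overlap between all of them. In every culture they were higher at 3h than at 0h, but the log2 fold change of 0.31 ± 0.18 was not called (adjusted p = 0.781). Total reads of IGF1R changed by 0.16 ± 0.11 at 3h and 0.09 ± 0.12 at 24h (adjusted p = 0.871 and 0.706). IGF2R total reads lay between 1248 and 1532 in the 0h samples and between 1430 and 1815 in the 24h samples. They were higher at 24h than at 0h in all 3 cultures without being called (0.25 ± 0.11, adjusted p = 0.150), and T>C reads of IGF2R changed by -0.01 ± 0.14 at 3h and 0.13 ± 0.15 at 24h.

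IGFBP3 and IGFBP6, the scarcest binding proteins tested, were not called in any comparison. IGFBP3, the chief carrier of IGFs in blood, had 37.35, 42.37 and 18.59 normalized total reads at 0h and 16.42, 15.65 and 25.49 at 24h. S9CC13_R6 and S9CC47_R5 were lower at 24h and S9CC47_R6 was higher, so the cultures did not share a direction. The fitted changes were -0.84 ± 0.52 in total reads and -1.50 ± 0.81 in T>C reads (adjusted p = 0.338 and 0.421). IGFBP6, a binding protein that prefers IGF2, ranged from 54.27 to 126.4 normalized total reads over all samples. It had few T>C reads, at most 10.88 normalized in any sample, and these were lower than at 0h in all 3 cultures at both times without being called (-1.93 ± 1.32 at 3h, adjusted p = 0.894).

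The share of a gene's reads that carry a conversion is taken as a measure of how much of its RNA pool was made within the labelling period. It includes any background of T>C reads in unlabelled RNA. At 0h the median over 11561 genes was 27.3%, and 6 of the 8 tested members lay below it. IGF2 had the lowest share, at 5.18% of 792 reads summed over the 3 samples, with only 1.35% of genes lower. IGFBP6 stood at 7.53%, IGFBP2 at 11.9%, IGFBP4 at 15.0%, IGFBP5 at 16.4% and IGF1R at 19.4%. IGF2R, at 27.8%, was close to the median. IGFBP3 alone was far above it, at 54.3% of 94 reads, with 90.6% of genes lower. A gene's count of convertible T bases in the counted 3′ region also enters this share, and was not examined.

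**Figure D4:**
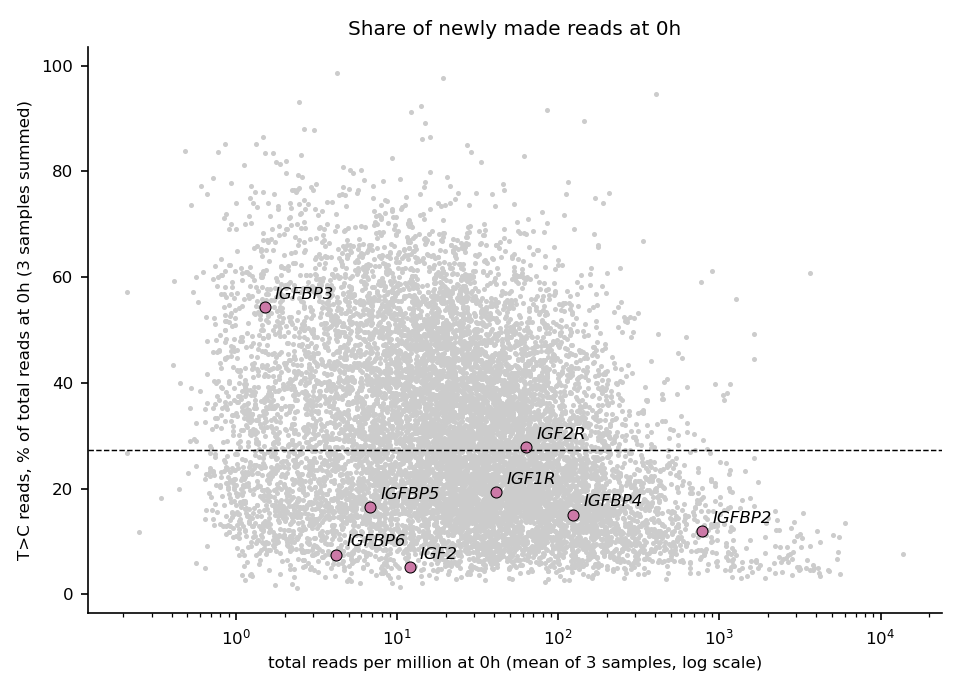
T>C reads as a percent of total reads at 0h (vertical axis, reads of 3 samples summed) against total reads scaled to equal library totals (CPM, horizontal, log scale). Grey points are the 11561 genes tested in both measures, pink points the 8 members and the dashed line the median of 27.3%; IGF2 lies near the bottom edge and IGFBP3 well above the median.

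For 2 of the 8 members the T>C share was higher in every 24h sample than in every 0h sample, as it was for 9.13% of 11561 genes; the library shares were also higher at 24h than at 0h on average. For IGFBP5 the share was 18.2%, 11.4% and 17.2% at 0h and 23.4%, 22.0% and 21.2% at 24h. The Wilson 95% intervals of single samples were wide, from 6.29% to 19.7% for S9CC47_R5 at 0h, and cover counting error only. For IGF2 the share was 4.42%, 7.65% and 4.30% at 0h and 12.8%, 9.35% and 8.92% at 24h. The mean differences were 6.60 percentage points for IGFBP5 and 4.89 for IGF2 (exact two-sided permutation p = 0.1 for each, the smallest p that 3 samples against 3 allow). Across the 8 members and both times, 3 of 16 comparisons reached it, the remaining one being IGFBP6 at 3h, which was lower, with 6 T>C reads in 3 samples (12.6% of genes had every 3h share below every 0h share). Compared in 1 fit with the unconverted reads of the same libraries, no member's T>C reads were called as changing differently. DESeq2 called 0 of 8 members at 3h and 0 at 24h, against 0.324% and 0.0166% of genes, and edgeR also called 0 at each time. At an unadjusted p under 0.05 there were 2 members at 3h (IGFBP4 and IGFBP6) and 1 at 24h (IGF2), against 546 and 573 of all 12037 genes.

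Over the 9 samples, the normalized T>C reads of IGFBP4 (log2) ran closest to those of LENG1 (Pearson r = 0.967), RIPOR1 and GOT1 among 8675 genes with a mean of at least 50. IGFBP5 ran closest to ATXN2L (r = 0.952), SAT1 and TOPBP1, and IGF2 to FYTTD1 (r = 0.946), GLT8D1 and BCL11A. The samples of such a correlation share libraries, cultures and depth, and among so many genes some will run close to any profile.

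The wider insulin and IGF pathway was described with 85 genes in 6 lists. At 3h none of the 76 tested for T>C reads was called, and 1 of 75 was called for total reads. At 24h 7 of 76 were called for T>C reads (9.21%; 5 higher, 2 lower) and 14 of 75 for total reads (18.7%; 6 higher, 8 lower), beside 4.98% and 15.0% of all tested genes. The adaptors that couple the receptors to signalling had 1 of 18 called for T>C reads. It was IRS1, the insulin receptor substrate that recruits PI3K. Its T>C reads were 84.39, 111.3 and 118.1 at 0h and 171.6, 154.7 and 220.0 at 24h, with no overlap, a rise of 0.73 ± 0.22 (adjusted p = 0.0327). Total IRS1 reads also rose, by 0.73 ± 0.17 (adjusted p = 0.000682).

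Forkhead factors of the FOXO group, which AKT keeps out of the nucleus, were lower where they were called. FOXO3 T>C reads were 922.1, 832.0 and 833.3 at 0h and 656.1, 480.8 and 594.2 at 24h, a fall of -0.52 ± 0.13 (adjusted p = 0.00218). In total reads FOXO1 (-0.83), FOXO3 (-0.53) and FOXO4 (-0.85) all fell at 24h, and FOXO1 was the gene called at 3h (-0.70 ± 0.22, adjusted p = 0.0937). SESN3, a sestrin gene known as a FOXO target, rose by 0.53 ± 0.12 in T>C reads (adjusted p = 0.00103). Over the 14 FOXO genes and targets tested the median T>C change at 24h was -0.11, and 2 were called, beside 4.98% of all tested genes. In total reads SESN3 (0.44) and GADD45A (0.29 ± 0.11, adjusted p = 0.0772), a further target, were called as higher at 24h.

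Of the 28 PI3K, AKT and mTOR genes 2 were called for T>C reads at 24h: the regulatory subunit genes PIK3R1 (0.29 ± 0.09, adjusted p = 0.0242) and PIK3R3 (-0.30 ± 0.10, adjusted p = 0.0566), in opposite directions. T>C reads of PIK3R1 overlapped between 0h (2579, 2388 and 2297) and 24h (2824, 3141 and 2556). Over all tested genes 4.98% were called in T>C reads at 24h and 15.0% in total reads. In total reads both were called again in the same directions (0.34 and -0.32), as were RICTOR, a subunit gene of an mTOR complex, as higher (0.48 ± 0.19, adjusted p = 0.0880) and AKT2, an AKT kinase gene, as lower (-0.33 ± 0.07, adjusted p = 0.000276). Among 6 tested genes that cleave binding proteins or control their cleavage, STC1, whose product inhibits pappalysin, rose by 0.68 ± 0.24 in T>C reads at 24h (adjusted p = 0.0867). Its total reads were not called (0.59 ± 0.34, adjusted p = 0.276). PAPPA, which encodes pappalysin, the protease of IGFBP4, fell by -0.76 ± 0.23 in total reads (adjusted p = 0.0134), with 171.6, 178.5 and 157.3 at 0h and 78.24, 108.4 and 135.7 at 24h. Of 8 genes that act on IGF2 RNA or its promoters, IGF2BP3, which encodes an IGF2 RNA-binding protein, rose by 0.34 ± 0.10 in T>C reads (adjusted p = 0.0259). Its groups overlapped, with 1012, 882.7 and 934.6 at 0h and 1121, 1164 and 958.7 at 24h. INSR, the insulin receptor, was not called at 24h (0.10 ± 0.23 in T>C reads, adjusted p = 0.928). The remaining calls in total reads at 24h were GRB10, an adaptor gene (-0.26), CTSD, a lysosomal protease gene (-0.22), and IGF2BP3 (0.22). FOXO1, FOXO4, GADD45A, RICTOR, AKT2, PAPPA, GRB10 and CTSD are named here after their values were seen.

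**Figure D5:**
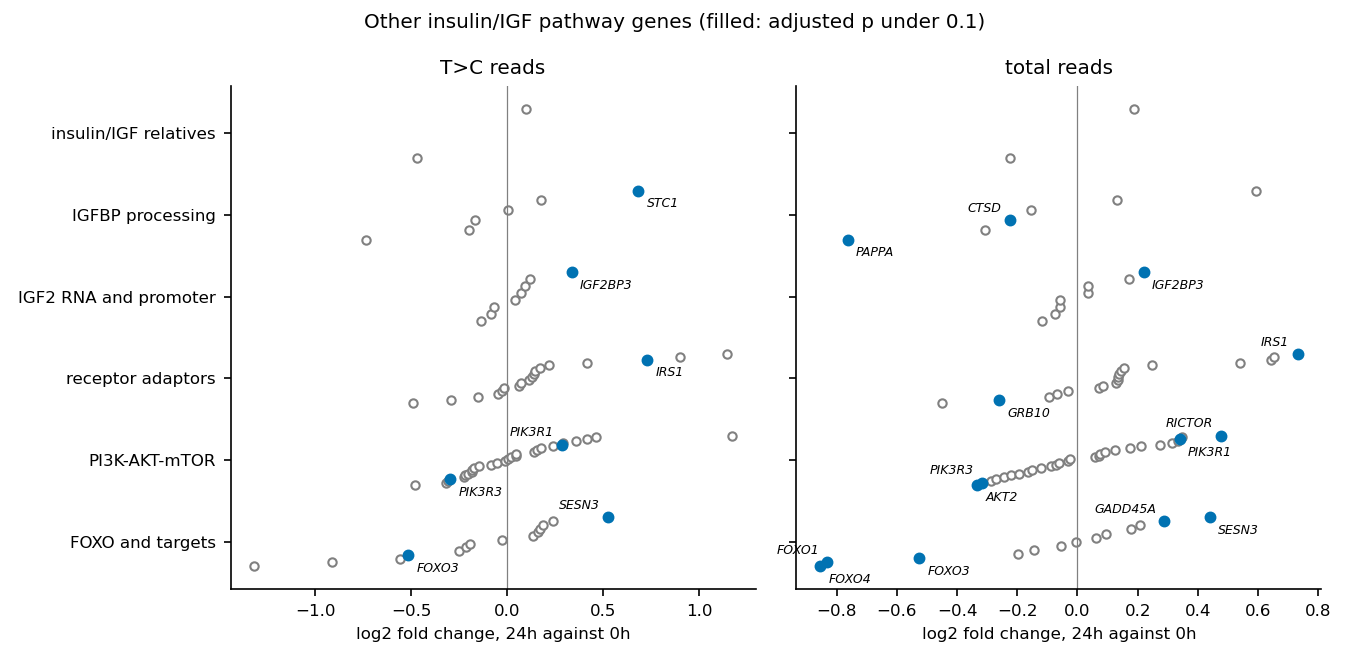
Log2 fold change at 24h against 0h of the other insulin and IGF pathway genes, 1 point per tested gene, by list, for T>C reads and total reads. Filled, named points were called at an adjusted p under 0.1; the FOXO genes that were called lie left of 0 and IRS1 lies right of it in both panels.

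Other marker lists moved with the same contrasts. Summed neural crest markers were 84721 to 89172 normalized total reads at 0h and 112520 to 119664 at 24h. Without SOX9 they were 67851 to 71721 and 74632 to 81933. Of these markers 7 of 15, SOX9 among them, were called as higher at 24h and 0 as lower. Of all tested genes 15.0% were called there, 7.11% as higher. Summed chondrocyte markers, led by the collagen gene COL2A1 with ACAN at 18.29 or less, were 8383 to 8884 at 0h and 4398 to 5602 at 24h. Sums were also lower without overlap at 24h for the endothelial list (391.7 to 634.2 at 0h, 210.6 to 328.7 at 24h), the list of glia and melanocytes (113.0 to 172.8, then 60.37 to 85.01) and the pluripotency list (18509 to 19804, then 16147 to 18171). Genes called as lower at 24h were 2 of 5 tested in the chondrocyte list and 1 of 2 in the endothelial list. They were 1 of 3 in the list of glia and melanocytes and 1 of 4 in the pluripotency list. The sums of the neural, neuronal and muscle lists overlapped between 0h and 24h. The part of these cell types in the IGF results was not tested.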

How the data were processed

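The authors deposited 2 tables of raw counts per gene symbol, 1 of all reads and 1 of reads with a T>C conversion, with 9 columns each, all used. Per the study's methods, read 1 of QuantSeq 3′ libraries was trimmed with skewer, cleared of poly(A), and mapped and counted with slamdunk; the labels give hg38. Molecular identifiers, strand use and the counted 3′ intervals are not given in the sources used here. Coordinates and gene types came from GENCODE on hg38, with 18852 of 18970 symbols matched to GENCODE or RefSeq. Counts were not altered.

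Raw counts of all 9 samples entered 1 DESeq2 fit (version 1.42.0, R 4.3.3) per measure with time, differentiation batch and 1 surrogate variable (sva 3.50.0), as in the study's methods. The surrogate variable was highest in S9CC47_R6 at 24h (0.5388 in T>C and 0.5886 in total reads). It was lowest in S9CC13_R6 at 3h (-0.7097 and -0.6712). Fitted changes can therefore differ from the listed values. Genes of the protein-coding type entered the tests where 3 samples reached 1 CPM (12037 in T>C reads, 11710 in total reads). The threshold for a call was an adjusted p under 0.1 after Benjamini-Hochberg correction. Normalized reads are counts divided by size factors. Unconverted reads are total minus T>C reads; their contrast with T>C reads used a library block. The script was tested on simulated data. Each culture gave 1 sample per time. In the fits per measure, p-values rest on the spread between samples that is left after batch and the surrogate variable. These fits held no term for the culture, and PCR reads are not independent molecules. The clone and batch in the titles pair samples across times. Deviations of same-culture samples correlated at a mean r of 0.175 in T>C reads (-0.129 to 0.570) and 0.269 in total reads (-0.159 to 0.702). Alternatives included edgeR 4.0.16, other covariates and filters, and left-out cultures.

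The members and lists were chosen with earlier results of these data known. Named were all 10 members, up to 2 called genes per pathway list and direction averaging 50 or more normalized T>C reads, the 3 genes closest to each member called for T>C reads, and SOX9. A pathway gene from these lists is not reported here and was left out of the list counts.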

Additional observations from a re-analysis of the deposited data

Results flagged for a closer look

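For 2 members the change at 24h differed from the change at 3h when the times were compared directly. Total reads of IGF2 differed by 0.67 on the log2 scale between 24h and 3h (higher in 3 of 3 cultures), and those of IGFBP2 by 0.48 (higher in 3 of 3 cultures). In the same contrast DESeq2 did not call the T>C reads of either, while edgeR called those of IGFBP2 (adjusted p = 0.0281).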

How the results depend on the processing

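Counts of members called depended on the settings. For T>C reads at 3h, 2 members were called in the reported fit, 1 (IGFBP4) at an adjusted p under 0.05, without the surrogate variable, without the filter, with the replicate block or without the library S9CC47_R6 24h (chosen after seeing the data), and 0 without covariates, with only the 6 samples compared or with size factors from total reads. For T>C reads at 24h, 2 were called as reported and 1 (IGFBP5) at an adjusted p under 0.05, without the filter, with only the 6 samples compared or without S9CC47_R6 24h. For T>C reads at 24h against 3h, 0 were called as reported and 1 (IGFBP2) by edgeR or with only the 6 samples compared. For total reads at 3h, 1 was called as reported and 0 without the surrogate variable, without covariates or with the replicate block, whose call of IGFBP5 ended at adjusted p = 0.105. For total reads at 24h, 4 were called as reported, 3 without covariates (IGFBP2 had adjusted p = 0.142) and 1 (IGFBP2) with only the 6 samples compared, where IGFBP5 was at 0.693 (adjusted p = 0.297), IGF2 at 0.612 (0.216) and IGFBP4 at 0.27 (0.425). Leaving out 1 culture at a time gave 0 called members in every case at 3h, for T>C and for total reads. For T>C reads it gave 0 to 1 in the 24h contrast with 0h and 0 to 1 in that with 3h, and for total reads 0 to 2 in each. The number called over all genes changed too, without S9CC13_R6, S9CC47_R5 and S9CC47_R6 in that order. For T>C reads it went from 216 to 59, 91 and 61 at 3h and from 599 to 54, 251 and 59 at 24h. For total reads it went from 221 to 64, 152 and 200 and from 1751 to 154, 719 and 327. At 24h against 3h it went from 137 to 20, 30 and 120 (T>C) and from 631 to 93, 165 and 889 (total). The replicate block stood in for the batch and the surrogate variable, so its changes cannot be credited to pairing alone. It changed no call of a member other than those of IGFBP5 at 3h and at 24h against 3h (total reads).

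Members that were not called changed sign around 0. Log2 fold changes of T>C reads at 3h became 0.0307 for IGFBP2 without the surrogate variable, 0.0316 with the block and 0.0117 without covariates. For IGF2R they became 0.0043 with a mean of at least 20 counts, 0.00343 with only the 6 samples compared and 0.0119 without S9CC47_R6 24h. Total IGF1R at 24h became -0.00204 without the surrogate variable and -0.00187 with the block. Over the left-out cultures, T>C values ran from -0.255 to 0.0436 (IGF2R, 3h), -0.139 to 0.27 (IGFBP2, 3h), -0.185 to 0.501 (IGF2R, 24h) and -0.0389 to 0.809 (IGFBP2, 24h against 3h). Total values ran from -0.155 to 0.0555 (IGF2, 3h), -0.0415 to 0.244 (IGF2R, 3h), -0.165 to 0.0604 (IGFBP2, 3h), -0.004 to 0.384 (IGFBP6, 3h), -0.119 to 0.288 (IGF1R, 24h), -0.0528 to 0.364 (IGF2R, 24h) and -0.181 to 0.0513 (IGFBP6, 24h). The causes were not tested. Alternatives were run for the members, not for the other pathway genes. Depth limits IGF1, IGFBP3, IGFBP6 and IGFBP7, and the T>C counts of IGF2 and IGFBP5.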
